A study of Mus musculus with 9 samples.

Results

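Chemokine ligands are small secreted proteins, in a few cases tethered to the membrane, that attract leukocytes bearing the matching receptors. They were taken as every row of the deposited expression table whose symbol consists of Ccl, Cxcl or Xcl and a number, together with Cx3cl1, Pf4 and Ppbp. The rule gave 47 of 21936 rows with 41 symbols, and 10 rows that shared 4 symbols were told apart by gene ID. A mean of at least 10 normalized counts over all libraries was reached by 23 of them, which were tested along with all other genes above that level, 11809 in total. The other 24 lay below it and are given by their reads. The libraries came from lymphatic endothelial cells sorted from mouse liver in 3 groups of 3: 4 weeks after bile duct ligation, 2 weeks after bile duct ligation, and sham surgery. Ligation of the bile duct blocks the outflow of bile and is used as a model of cholestasis. All mice, sham included, carried an IL7-GFP knock-in, a reporter that is described as specific to lymphatic endothelium in the labels. The sources used here do not give how many Il7 alleles carry it, the sorting gate, the age and sex of the mice, or the time from sham surgery to collection.

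The chemokines are named after the spacing of their first cysteines as CC, CXC, XC and CX3C ligands, and they act through G protein-coupled receptors on leukocytes. Inflammatory members such as Ccl2, Ccl3, Cxcl1 and Cxcl2 are induced by cytokines and microbial products, largely through the transcription factor NF-kB, whereas Cxcl9 and Cxcl10 are induced by interferons. Homeostatic members such as Cxcl12, Cxcl13 and Ccl21 guide cells in resting tissue. Lymphatic endothelium is best known for Ccl21, which guides dendritic cells that carry its receptor Ccr7 into lymphatic vessels, and in the liver macrophages, including the resident Kupffer cells, are a well-known source of inflammatory members.

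Values below are normalized counts, and p-values are from limma on log2(normalized count + 1), adjusted by the Benjamini-Hochberg method over the 11809 tested genes. A gene passed when its adjusted p was below 0.05, a log2 fold change is the difference on that log2 scale, and SE is its standard error. Reads on the table's genes came to between 2259239 and 5314381 in 8 libraries and to 592419 in sham replicate 2. In that library 1 read was worth 5.26 normalized counts, against 0.589 to 1.23 in the others, and its median correlation with the other libraries was 0.774, against 0.888 to 0.928. It was the highest of the 9 libraries for 9 of the 23 tested ligands and for 23.02% of all tested genes, so results are also given without it where they changed. The chemokine ligands together took 0.340% to 0.639% of the normalized counts at 4 weeks, 0.355% to 0.557% at 2 weeks and 0.304% to 0.596% in sham. Markers of lymphatic endothelium (Prox1, Lyve1, Flt4, Pdpn, Mmrn1 and Reln) were present in every library and summed to 23662 to 42941 normalized counts at 4 weeks, 13682 to 42429 at 2 weeks and 5194 to 35924 in sham. The 8 markers of macrophages summed to 13156 to 29612 normalized counts at 4 weeks, 22724 to 42121 at 2 weeks and 18904 to 39361 in sham, and those of Kupffer cells to 3745 to 10189 normalized counts at 4 weeks, 15446 to 42629 at 2 weeks and 15648 to 43335 in sham. Hepatocyte markers summed to 943 to 14135 normalized counts at 4 weeks, 2698 to 7137 at 2 weeks and 947 to 11902 in sham. Those of cholangiocytes summed to 626 to 2381, 626 to 1414 and 1846 to 2849 in the same order. Those of sinusoidal endothelium summed to 690 to 1699, 1186 to 1550 and 2082 to 4436. Chemokine reads were therefore counted in libraries with RNA of several kinds of cell. In such bulk samples fewer cells of a type and less RNA per cell cannot be told apart. The design text gives 3 mice per group. The limma p-values rest on the spread of libraries within groups, pooled over all 9 libraries and drawn toward a trend over the 11809 tested genes.

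At 4 weeks of ligation, the CC chemokines Ccl9 and Ccl6 and the CXC chemokine Pf4 were the ligands with the largest higher values against sham, and Ccl9 and Pf4 passed the test. The neutrophil attractants Cxcl1 and Cxcl2, among the most abundant members, passed in no comparison in limma. The following promoters, from 250 bases before to 50 bases after the annotated start, are those of the members that carry this contrast, with Cxcl3, Cxcl9 and Cxcl10 for comparison. They are RefSeq sequences of build GRCm38.p6, read 5′ to 3′ along the gene, and capitals mark any match to 5 motifs searched on both strands: GGGANNTTC (NF-kB), GAAANNGAA (the interferon-stimulated response element), GAGGAAGT (PU.1), TTGCNNAA (C/EBP) and TATAAA (the TATA box).
Ccl9: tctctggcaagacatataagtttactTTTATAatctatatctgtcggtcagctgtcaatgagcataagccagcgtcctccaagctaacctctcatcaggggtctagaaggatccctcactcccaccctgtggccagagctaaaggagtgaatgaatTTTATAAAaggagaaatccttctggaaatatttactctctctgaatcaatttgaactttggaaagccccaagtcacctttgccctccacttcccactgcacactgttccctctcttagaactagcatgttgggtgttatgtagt
Ccl6: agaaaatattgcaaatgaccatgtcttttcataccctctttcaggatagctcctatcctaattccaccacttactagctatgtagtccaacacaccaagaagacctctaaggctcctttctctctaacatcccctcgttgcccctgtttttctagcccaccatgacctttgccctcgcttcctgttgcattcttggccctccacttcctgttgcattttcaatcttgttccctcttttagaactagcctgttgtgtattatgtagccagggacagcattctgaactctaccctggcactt
Pf4: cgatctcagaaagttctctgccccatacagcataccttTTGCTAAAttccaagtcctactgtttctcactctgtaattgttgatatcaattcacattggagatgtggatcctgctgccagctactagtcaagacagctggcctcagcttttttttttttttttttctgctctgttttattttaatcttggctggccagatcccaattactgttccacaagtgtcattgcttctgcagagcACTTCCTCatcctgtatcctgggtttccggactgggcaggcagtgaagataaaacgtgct
Cxcl1: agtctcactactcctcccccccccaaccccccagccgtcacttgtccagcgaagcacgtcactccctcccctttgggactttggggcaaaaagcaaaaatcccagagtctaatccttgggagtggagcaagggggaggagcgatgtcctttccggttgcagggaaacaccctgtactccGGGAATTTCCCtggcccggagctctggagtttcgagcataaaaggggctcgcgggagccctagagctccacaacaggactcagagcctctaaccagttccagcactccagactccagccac
Cxcl2: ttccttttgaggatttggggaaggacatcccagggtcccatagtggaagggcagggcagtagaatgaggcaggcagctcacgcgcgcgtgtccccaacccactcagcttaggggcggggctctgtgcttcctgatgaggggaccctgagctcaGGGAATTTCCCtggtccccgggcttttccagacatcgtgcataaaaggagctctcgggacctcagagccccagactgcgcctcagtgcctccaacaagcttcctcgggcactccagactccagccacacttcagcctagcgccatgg
Cxcl3: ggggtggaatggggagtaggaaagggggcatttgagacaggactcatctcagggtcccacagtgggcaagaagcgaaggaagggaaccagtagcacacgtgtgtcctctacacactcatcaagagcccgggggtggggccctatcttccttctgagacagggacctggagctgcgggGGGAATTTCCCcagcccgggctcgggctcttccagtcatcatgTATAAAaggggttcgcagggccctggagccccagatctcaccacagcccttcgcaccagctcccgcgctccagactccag
Cxcl9: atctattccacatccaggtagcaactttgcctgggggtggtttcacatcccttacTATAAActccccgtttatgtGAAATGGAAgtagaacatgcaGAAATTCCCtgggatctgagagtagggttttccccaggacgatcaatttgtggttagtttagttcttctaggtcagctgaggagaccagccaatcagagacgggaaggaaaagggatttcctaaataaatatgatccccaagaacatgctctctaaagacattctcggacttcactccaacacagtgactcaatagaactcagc
Cxcl10: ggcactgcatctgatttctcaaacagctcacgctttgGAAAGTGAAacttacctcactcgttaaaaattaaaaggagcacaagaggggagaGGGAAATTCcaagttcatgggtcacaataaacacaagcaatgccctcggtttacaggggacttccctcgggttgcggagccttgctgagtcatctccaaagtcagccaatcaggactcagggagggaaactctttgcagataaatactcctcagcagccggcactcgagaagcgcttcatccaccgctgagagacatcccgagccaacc

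In order, these windows lie at chr11:83578587-83578886 (minus strand), chr11:83593038-83593337 (minus strand), chr5:90772185-90772484 (plus strand), chr5:90890995-90891294 (plus strand), chr5:90903649-90903948 (plus strand), chr5:90785851-90786150 (plus strand), chr5:92328030-92328329 (minus strand) and chr5:92348840-92349139 (minus strand). Cxcl1, Cxcl2 and Cxcl3 each held the run GGGAATTTCCC, which matches the NF-kB motif on both strands, with the 2 matches overlapping. Its first base lay 71, 97 and 73 bases before the start of Cxcl1, Cxcl2 and Cxcl3. Cxcl10 held GGGAAATTC from 159 to 151 bases before its start and the interferon element GAAAGTGAA from 213 to 205 bases before it. Cxcl9 held an NF-kB match on the opposite strand from 154 to 146 bases before its start and GAAATGGAA from 175 to 167 bases before it. Of the 23 tested ligands 17 had a promoter in the table used here, and 5 of these 17, those just named, held the NF-kB motif, which 3.94% of all 32851 promoters of this length hold. The interferon element was held by 4 ligands (Cxcl9, Cxcl10, Cxcl14 and Ccl3) and by 8.56% of all promoters. The PU.1 motif was found in 1 ligand, Pf4, 10 to 3 bases before its start on the opposite strand, and in 3.20% of all promoters. The C/EBP motif was found in Pf4 and Cxcl13 and in 10.8% of all promoters, and TATAAA in 8 ligands and in 13.6% of all promoters. In Ccl9 the matches to TATAAA on both strands overlap at 94 to 87 bases before the start. The Ccl9 and Ccl6 windows share a stretch near the start, with 41 identical bases of 60 in their best ungapped match, against a median of 29 over the 136 pairs of ligand promoters and 45 for Cxcl2 with Cxcl3, the most alike pair. The motif letters were set after these promoters had been seen, so the counts beside the shares of all promoters are a description and not a test. A match describes the letters and not the use of a site.

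**Figure D1:**
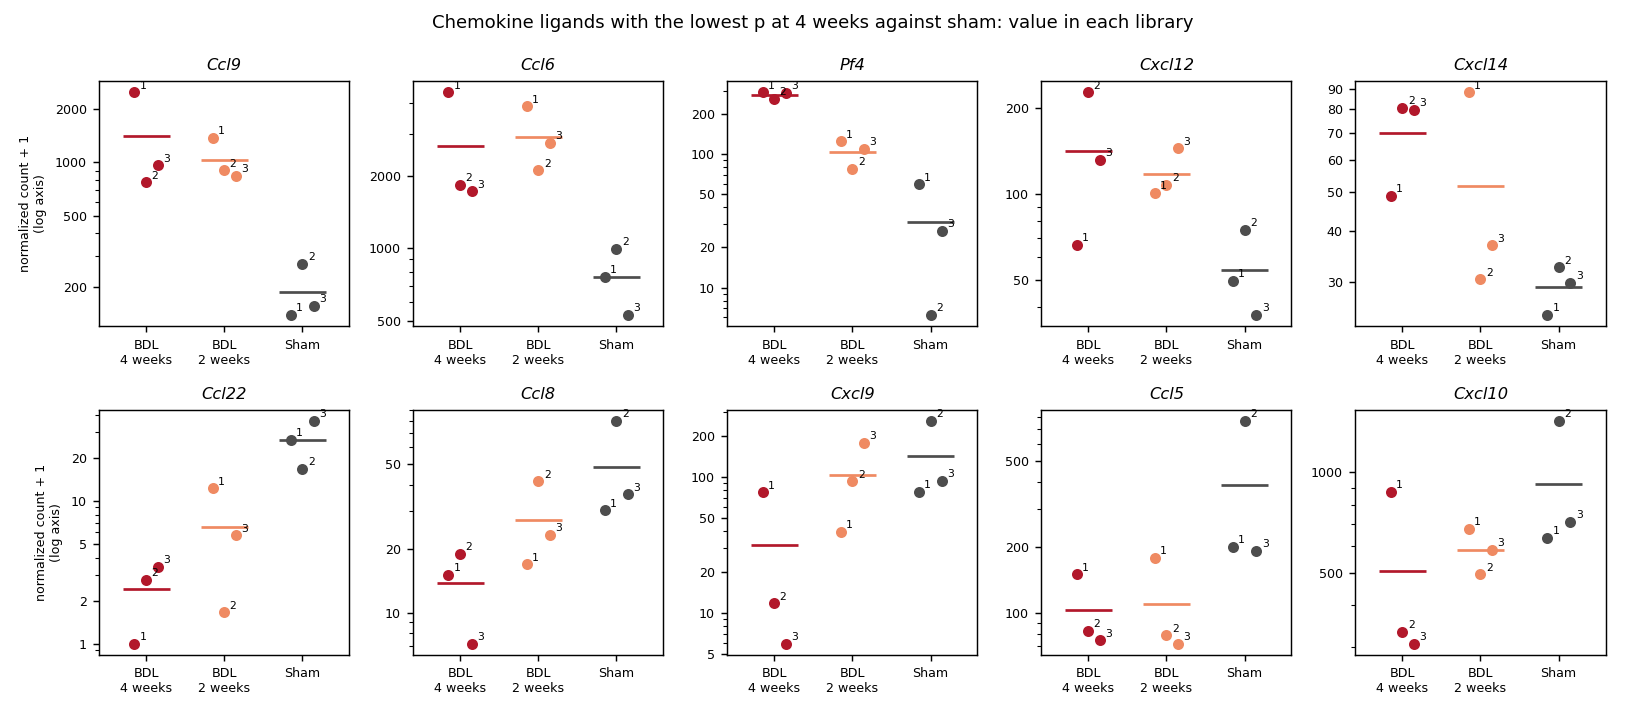
Normalized count plus 1 (log axis) of 10 chemokine ligands in each library at 4 weeks, 2 weeks and sham; points are libraries numbered by replicate and lines are group means. Ccl9, Ccl6 and Pf4 lay higher in all 6 ligation libraries than in all 3 sham libraries, and Ccl22 and Ccl5 lay lower in all 6.

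Ccl9 and Ccl6 are rodent CC chemokines that act through Ccr1, a receptor of monocytes, macrophages and neutrophils. Ccl9 (ENSMUSG00000019122, chromosome 11, 83572919 to 83578636 of GRCm38, minus strand) had 2481, 772 and 965 normalized counts at 4 weeks, 1371, 901 and 839 at 2 weeks and 138, 268 and 155 in sham. The 6 ligation libraries all lay above the 3 sham libraries, and 4-week replicate 1 was the highest of all. Its means were 1406 ± 936 at 4 weeks, 1037 ± 291 at 2 weeks and 187 ± 70.6 in sham (SD, n = 3 each), a ratio to sham of 7.51 at 4 weeks and 5.54 at 2 weeks. Without 4-week replicate 1 the 4-week mean was 868. Ccl9 rose at 4 weeks (log2 fold change 2.77 ± 0.44 SE, limma, adjusted p = 0.0192). The 2-week difference was 2.49 ± 0.44 SE and did not pass (limma, adjusted p = 0.168). The call at 4 weeks was also made by edgeR on recovered reads (adjusted p = 0.0196) and without sham replicate 2 (limma, adjusted p = 0.0153). It was lost in limma without 4-week replicate 3 (adjusted p = 0.0804), without sham replicate 1 (adjusted p = 0.0673), without sham replicate 3 (adjusted p = 0.0616) and when the 2-week libraries were left out of the fit (adjusted p = 0.068).

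Ccl6 (ENSMUSG00000018927, chromosome 11, 83587882 to 83593087, minus strand) had 4455, 1836 and 1724 normalized counts at 4 weeks, 3894, 2110.1 and 2741 at 2 weeks and 761, 994 and 529.6 in sham. All 6 ligation libraries again lay above the sham libraries, and the 4-week and 2-week libraries overlapped. The means were 2671 ± 1545 at 4 weeks, 2915 ± 905 at 2 weeks and 761 ± 232 in sham (SD, n = 3 each). The ratio of the means to sham was 3.51 at 4 weeks and 3.83 at 2 weeks. Neither difference passed in limma, with a log2 fold change of 1.71 ± 0.41 SE at 4 weeks (adjusted p = 0.0832) and 1.94 ± 0.41 SE at 2 weeks (adjusted p = 0.182). DESeq2 on the recovered reads called it at both times (adjusted p = 0.00171 at 4 weeks and 0.00192 at 2 weeks). An antisense transcript, E230016K23Rik, overlaps Ccl6, and since strand use in counting was not given, reads of the pair cannot be told apart.

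Within each group the order of the libraries by Ccl6 resembled their order by macrophage markers, which summed to 29612, 15701 and 13156 at 4 weeks, 42121, 22724 and 29361 at 2 weeks and 29964, 39361 and 18904 in sham. Values per 1000 normalized counts of these 8 markers were computed after the levels had been seen and carry no test. Ccl6 stood at 150.4, 117 and 131 at 4 weeks, 92.4, 92.9 and 93.4 at 2 weeks and 25.4, 25.2 and 28.0 in sham per 1000. On this scale the libraries of a group lay close together, the 3 at 2 weeks and the 3 in sham most of all, and the 3 groups did not overlap. Ccl9 stood at 83.8, 49.2 and 73.3 at 4 weeks, 32.6, 39.6 and 28.6 at 2 weeks and 4.62, 6.81 and 8.20 in sham per 1000, again with no overlap between the groups. Pf4, Cxcl16, Cxcl12 and Cxcl14 also lay higher on this scale in all 4-week libraries than in sham, and Ccl5 and Ccl22 lower. At 2 weeks Pf4 and Cxcl12 lay higher than in sham in all libraries, and Cxcl14 overlapped with it. Cxcl1, Cxcl16, Ccl4, Ccl5, Ccl7, Ccl12 and Ccl22 lay lower in all 2-week libraries, so the direction of Cxcl16 differed between the 2 times. The mean marker sum was 19490 at 4 weeks, 31402 at 2 weeks and 29410 in sham, and a lower sum raises every value on this scale. The share of all tested genes without overlap on it was not computed. The 7 markers of monocytes summed to 3102 to 6758 normalized counts at 4 weeks, 2715 to 4171 at 2 weeks and 1262 to 2332 in sham. The most abundant of them, Fn1, is also expressed by other cells, and its ligation libraries overlapped with sham. Of the other markers, Chil3 had 1120.1, 233 and 947 normalized counts at 4 weeks, 76.6, 106 and 215 at 2 weeks and 1.83, 0 and 0 in sham. F13a1 had 329, 666 and 728 at 4 weeks, 306, 287 and 239 at 2 weeks and 65.1, 110.4 and 27.3 in sham, and both genes were higher in all 6 ligation libraries. Plac8 had 164, 35.8 and 13.5 normalized counts at 4 weeks, 196, 165 and 298 at 2 weeks and 58.7, 347 and 31.2 in sham. Its ligation libraries overlapped with sham, and those of Vcan lay above sham at 4 weeks and overlapped with it at 2 weeks. Ccr2 overlapped between the groups, with 271 reads in all libraries, and Ly6c2 had 23 reads, all of them in ligation libraries. The part of monocyte-derived cells in the Ccl9 and Ccl6 differences was not tested.

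Pf4, platelet factor 4, is stored in platelet granules and is also transcribed by some tissue macrophages in mice. The gene (ENSMUSG00000029373, chromosome 5, 90772435 to 90773383, plus strand) had 291, 259.7 and 288 normalized counts at 4 weeks, 124, 76.4 and 108 at 2 weeks and 58.7, 5.26 and 25.7 in sham. The 3 groups did not overlap, with the 4-week libraries highest and within a narrow range and the sham libraries lowest. The means were 279.6 ± 17.3 at 4 weeks, 103 ± 24.1 at 2 weeks and 29.9 ± 27.0 in sham (SD, n = 3 each). Pf4 rose 9.36-fold by these means at 4 weeks (log2 fold change 3.70 ± 0.65 SE, limma, adjusted p = 0.0295). Sham replicate 2 held 1 read of Pf4, and without it the log2 fold change was 2.81 (limma, adjusted p = 0.00904) and the sham mean 42.2. Without sham replicate 1 the sham mean was 15.5. The call was lost in limma without 4-week replicates 1, 2 or 3 (adjusted p = 0.073, 0.091 and 0.13), without 2-week replicates 1 or 3 (0.0518 and 0.06), without sham replicate 3 (0.064) and with the 2-week libraries left out of the fit (0.1). The 2-week difference, with a ratio of means of 3.44, did not pass (log2 fold change 2.24 ± 0.65 SE, limma, adjusted p = 0.358). The 2-week and 4-week comparisons share the 3 sham libraries.

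Of 8 platelet and megakaryocyte markers, Gp1bb had 0 reads over all 9 libraries, Gp9 had 5, Gp1ba 10, Gp6 14, Treml1 30, Gp5 39 and Itga2b 204. Itga2b, the platelet integrin subunit, had 4.71, 17.9 and 27.1 normalized counts at 4 weeks, 12.97, 32.0 and 31.8 at 2 weeks and 13.8, 0 and 17.9 in sham, with overlap of the groups. Ppbp, the platelet basic protein next to Pf4 on the chromosome, had 7 reads at 4 weeks, 8 at 2 weeks and 1 in sham. The 8 markers summed to 248 to 616 normalized counts at 4 weeks, 192 to 446 at 2 weeks and 78.9 to 400.3 in sham, most of it Itgb3, an integrin that other cells also express, and their part in the Pf4 values was not tested. Per 1000 normalized counts of the macrophage markers, Pf4 stood at 9.83, 16.5 and 21.9 at 4 weeks, 2.94, 3.36 and 3.69 at 2 weeks and 1.96, 0.134 and 1.36 in sham, with no overlap between the groups.

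In total 2 of the 23 ligands passed at 4 weeks, both higher, which compares with 1.20% of all tested genes in limma. Without adjustment, p was below 0.05 for 5 ligands that were higher and 4 that were lower, against 6.43% and 7.30% of all tested genes. The libraries of 4 weeks and sham did not overlap for 4 ligands that were higher (Ccl9, Ccl6, Pf4 and Cxcl14) and 4 that were lower (Ccl22, Ccl8, Cxcl9 and Ccl5), against 8.60% and 8.39% of all tested genes. Of the 23, 9 had a higher and 14 a lower fitted value at 4 weeks, with a median log2 fold change of −0.22, against 0.067 over all tested genes. edgeR called 2 ligands, Ccl9 and Pf4 (1.41% of all tested genes). DESeq2 called 5 ligands (4.86% of all genes it gave a p), adding Ccl6, Ccl22 and Ccl5. Limma with library quality weights called 9 (13.6% of all tested genes), which were these 5 with Cxcl9, Cxcl10, Cxcl12 and Cxcl14.

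**Figure D2:**
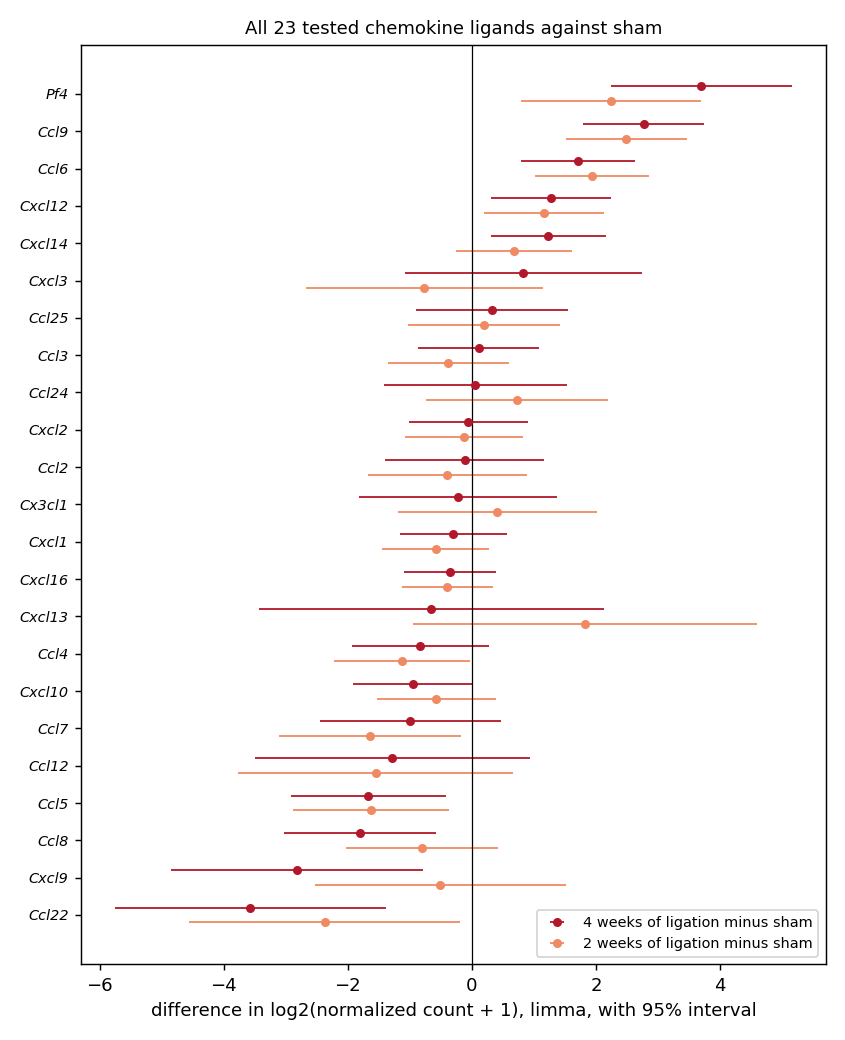
Difference in log2(normalized count + 1) against sham for the 23 tested chemokine ligands at 4 weeks and at 2 weeks, each with its 95% interval. Ccl9 and Pf4 at 4 weeks are the 2 that passed, and the largest fitted lower values are those of Ccl22.

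The ligands of Cxcr3, the receptor of activated T cells, and Ccl5, which attracts T cells and monocytes, had lower values at 4 weeks. Cxcl9 had 76.1, 10.7 and 4.92 normalized counts at 4 weeks, 38.3, 92.1 and 178 at 2 weeks and 77.0, 258 and 92.7 in sham. All 4-week libraries lay below all sham libraries, by a small margin for 4-week replicate 1, and the 2-week libraries overlapped with both groups. The 4-week difference in Cxcl9 did not pass (log2 fold change −2.82 ± 0.91 SE, limma, adjusted p = 0.203). It was −3.89 without 4-week replicate 1 (adjusted p = 0.0515) and −2.04 without 4-week replicate 3 (adjusted p = 0.461), and it passed in limma with library quality weights (adjusted p = 0.00709). Cxcl10 had 874, 331 and 305 normalized counts at 4 weeks, 675, 494 and 585 at 2 weeks and 635, 1425 and 709.5 in sham. 4-week replicate 1 and 2-week replicate 1 lay within the sham range, the other ligation libraries below it, and sham replicate 2 far above the rest. The 4-week log2 fold change of Cxcl10 was −0.95 ± 0.43 SE (limma, adjusted p = 0.372), and it passed in limma with library quality weights (adjusted p = 0.0199). Cxcl10 overlaps Art3 on the other strand, so their reads cannot be told apart here, and Cxcl11 has no row in the table.

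Ccl5 had 149, 81.5 and 73.8 normalized counts at 4 weeks, 179, 77.7 and 71.1 at 2 weeks and 201, 762 and 192 in sham. The 6 ligation libraries lay below the 3 sham libraries, and sham replicate 2 was 762, well above all others. Without that library the sham mean of Ccl5 was 197, against 385 with it. The log2 fold change was −1.67 ± 0.56 SE at 4 weeks (limma, adjusted p = 0.223) and −1.62 ± 0.56 SE at 2 weeks (adjusted p = 0.464), and −1.02 at 4 weeks without sham replicate 2. The 4-week difference in Ccl5 passed in limma with library quality weights (adjusted p = 0.0233) and in DESeq2 (adjusted p = 0.0282). T and NK cells are a known source of Ccl5, and their 7 markers in the table summed to 3.14 to 33.2 normalized counts at 4 weeks, 1.77 to 8.80 at 2 weeks and 1.83 to 10.5 in sham, with 0 reads of Nkg7. Per 1000 normalized counts of the macrophage markers, Ccl5 stood at 5.04, 5.19 and 5.61 at 4 weeks, 4.24, 3.42 and 2.42 at 2 weeks and 6.70, 19.4 and 10.2 in sham, again lower in all ligation libraries.

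Ccl22 and Ccl17 are the ligands of Ccr4, found on regulatory and type-2 helper T cells, and are made by dendritic cells and some macrophages. Ccl22 had 0, 1.79 and 2.46 normalized counts at 4 weeks, 11.2, 0.653 and 4.74 at 2 weeks and 25.7, 15.8 and 35.0 in sham. These values rest on 4 reads at 4 weeks, 27 at 2 weeks and 76 in sham, 3 of these 76 in sham replicate 2, and all 6 ligation libraries lay below the sham libraries. The log2 fold change of Ccl22 was −3.57 ± 0.98 SE at 4 weeks (limma, adjusted p = 0.123) and −2.37 ± 0.98 SE at 2 weeks (adjusted p = 0.536), and DESeq2 called it at 4 weeks (adjusted p = 0.00392). Ccl17 was below the filter, with 12 reads at 4 weeks, 29 at 2 weeks and 1 in sham. The markers of dendritic cells summed to 141 to 189 normalized counts at 4 weeks, 167 to 187 at 2 weeks and 231 to 306 in sham. The sum was lower in all ligation libraries, but its members differed. Ccr7 was lower in all of them, and Zbtb46 overlapped with sham. Clec9a overlapped with sham at 4 weeks. At 2 weeks it had 86.6, 82.96 and 112 normalized counts, above the 77.9, 36.8 and 60.8 in sham. Flt3, with 51 reads in all libraries, had 6.28, 11.6 and 18.5 at 4 weeks and 0, 0 and 1.56 in sham. The part of dendritic cells in the Ccl22 values was not tested.

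The monocyte-attracting CC ligands, all near one another on chromosome 11, had lower fitted values at 4 weeks and none of the 4 passed. Ccl2, the main ligand of Ccr2, had 512, 336 and 440.5 normalized counts at 4 weeks, 599, 252 and 281 at 2 weeks and 417, 1172 and 197 in sham. Sham replicate 2 was the highest library of Ccl2 and the other libraries of the 3 groups overlapped. The log2 fold change of Ccl2 at 4 weeks was −0.12 ± 0.57 SE (95% interval −1.40 to 1.16), and without sham replicate 2 it was 0.56. Ccl7, another Ccr2 ligand, had 144, 139.7 and 198 normalized counts at 4 weeks, 216, 62.7 and 75.1 at 2 weeks and 258, 909 and 135 in sham. Its sham mean of 434 was 196 without sham replicate 2. The log2 fold change of Ccl7 was −0.99 ± 0.65 SE at 4 weeks (limma, adjusted p = 0.547) and −1.64 ± 0.65 SE at 2 weeks (adjusted p = 0.521). Ccl8, which in mice acts on Ccr8, had 14.1, 17.9 and 6.15 normalized counts at 4 weeks, 15.9, 40.5 and 22.3 at 2 weeks and 29.3, 78.9 and 35.0 in sham. All 4-week libraries of Ccl8 lay below all sham libraries, by a log2 fold change of −1.81 ± 0.55 SE that did not pass (limma, adjusted p = 0.177). Ccl12, a mouse Ccr2 ligand, ranged from 1.57 to 16.1 at 4 weeks, 1.96 to 10.8 at 2 weeks and 10.1 to 63.1 in sham, the last value being sham replicate 2. Ccl2 overlaps the predicted gene Gm17268 on the other strand, and the counts cannot separate them.

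Ccl3 and Ccl4, which macrophages release on activation, sit next to Ccl9 and Ccl6 and showed no such difference. Ccl3 had 1988, 646 and 872 normalized counts at 4 weeks, 877, 644 and 718 at 2 weeks and 627, 1540.4 and 923 in sham. The 3 groups overlapped, and the log2 fold change at 4 weeks was 0.11 (95% interval −0.86 to 1.08). Ccl4 had 882, 421 and 507 normalized counts at 4 weeks, 662, 458 and 334 at 2 weeks and 613, 2261 and 760.2 in sham. Sham replicate 2 was the highest, and its log2 fold change was −0.83 ± 0.49 SE at 4 weeks and −1.12 ± 0.49 SE at 2 weeks (limma, adjusted p = 0.5 and 0.566). Within 138.906 kb of chromosome 11 (83525778 to 83664683) the order of genes is Ccl5, Ccl9, Ccl6, Ccl3 and Ccl4. Ccl9 and Ccl6, separated by 9.246 kb, thus had higher values at 4 weeks while Ccl5, 42.401 kb to one side, had lower ones and Ccl3, 54.757 kb to the other, had values that overlapped with sham.

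**Figure D3:**
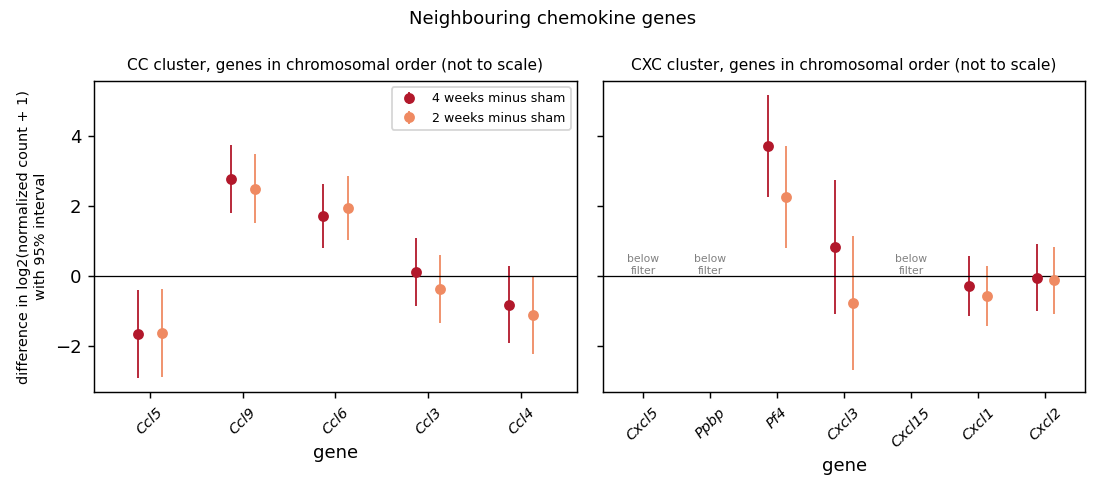
Difference in log2(normalized count + 1) against sham, with 95% intervals, at 4 weeks and 2 weeks for genes of a CC cluster and a CXC cluster in chromosomal order (not to scale). The intervals of Ccl9, Ccl6 and Pf4 lie above 0, and those of the other genes shown include 0 or lie below it; the 3 genes under the filter have none.

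The Cxcr2 ligands recruit neutrophils and were abundant in every group. Cxcl2 had 5609, 1849 and 3556 normalized counts at 4 weeks, 4015, 2432 and 3288 at 2 weeks and 4473, 3864 and 2393 in sham. Cxcl1 had 2444, 858 and 1880.1 normalized counts at 4 weeks, 1257, 1207 and 1443 at 2 weeks and 2377, 2266 and 1354 in sham. For both genes the lowest library was 4-week replicate 2 and the highest 4-week replicate 1, so that the 4-week libraries enclosed all sham values. The log2 fold change at 4 weeks was −0.055 for Cxcl2 (95% interval −1.01 to 0.90), and −0.30 for Cxcl1 (95% interval −1.16 to 0.57). Changes beyond about these bounds are outside the intervals, but smaller ones are not. Cxcl3, the third with the shared NF-kB motif, ranged from 62.7 to 277 at 4 weeks, 19.6 to 81.3 at 2 weeks and 24.1 to 242 in sham, with overlap of all groups. Cxcl5 and Ppbp, the other members with this receptor, were below the filter with 29 and 16 reads. Pf4 lies in the same cluster of 146.579 kb on chromosome 5 (90759360 to 90905938) and 2.372 kb from Ppbp.

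**Figure D4:**
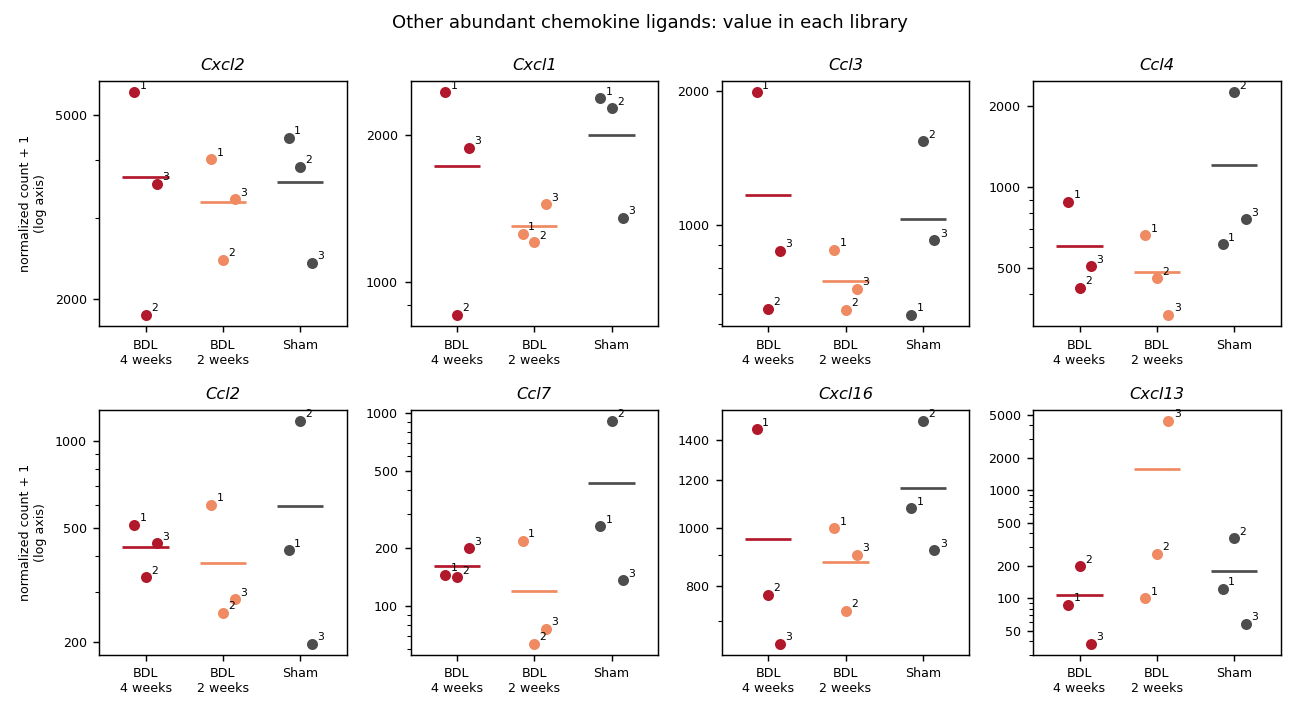
Normalized count plus 1 (log axis) of 8 other chemokine ligands in each library at 4 weeks, 2 weeks and sham; points are libraries numbered by replicate and lines are group means. The groups overlap for all 8 at 4 weeks against sham, sham replicate 2 is the highest sham library for 6 of them, and 2-week replicate 3 stands alone for Cxcl13.

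Cxcl12 and Cxcl14 are made mainly by stromal and epithelial cells, and Cxcl12 guides cells with the receptor Cxcr4. Cxcl12 had 65.2, 227 and 130.4 normalized counts at 4 weeks, 99.6, 106 and 144 at 2 weeks and 48.6, 73.6 and 36.6 in sham. The 2-week libraries all lay above sham and 4-week replicate 1 lay within the sham range. The means of Cxcl12 were 141 ± 81.2 at 4 weeks, 117 ± 23.6 at 2 weeks and 52.9 ± 18.9 in sham (SD, n = 3 each), and neither log2 fold change passed (1.28 ± 0.43 SE at 4 weeks, limma, adjusted p = 0.229, and 1.16 ± 0.43 SE at 2 weeks, adjusted p = 0.496). Cxcl14 had 47.9, 79.7 and 78.7 normalized counts at 4 weeks, 87.2, 29.4 and 35.9 at 2 weeks and 23.8, 31.5 and 28.8 in sham. All 4-week libraries of Cxcl14 lay above all sham libraries, by a log2 fold change of 1.24 ± 0.42 SE that did not pass (limma, adjusted p = 0.225). Markers of fibroblasts and stellate cells, which also express both genes, summed to 787 to 2820.2 normalized counts at 4 weeks, 1042 to 3666 at 2 weeks and 143 to 825 in sham, and their part in these values was not tested.

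Cxcl13, the attractant of B cells, was set apart by 1 library. It had 86.3, 196 and 36.9 normalized counts at 4 weeks, 99.0, 257 and 4384 at 2 weeks and 121, 357 and 56.9 in sham. 2-week replicate 3 held 6477 of the 7038 reads of that group. The 2-week mean was 1580.0 with it and 178 without it, against 106 at 4 weeks and 178 in sham. No comparison of Cxcl13 passed, with a log2 fold change of 1.83 ± 1.24 SE at 2 weeks (limma, adjusted p = 0.693). The 5 markers of B cells summed to 4.74 in 2-week replicate 3, below the other 2-week libraries.

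Cxcl16 and Cx3cl1 are made as transmembrane proteins and can be shed by the proteases Adam10 and Adam17. Cxcl16, the ligand of Cxcr6, had 1456, 771 and 639.8 normalized counts at 4 weeks, 996, 726 and 899.6 at 2 weeks and 1076, 1504 and 916 in sham. The groups overlapped, with a log2 fold change of −0.35 at 4 weeks (95% interval −1.09 to 0.39), and its reads cannot be told apart from those of Zmynd15, which overlaps it on the other strand. Cx3cl1 was low, at 10.99 to 25.8 at 4 weeks, 22.2 to 39.9 at 2 weeks and 5.26 to 49.8 in sham. The eosinophil attractant Ccl24 ranged from 159 to 224 at 4 weeks, 128 to 754 at 2 weeks and 92.7 to 431 in sham, and Ccl25, the ligand of Ccr9, from 25.1 to 45.5, 25.9 to 39.3 and 10.5 to 57.8 in the same order. Ccl25 overlaps Elavl1 on the other strand, and the counts cannot separate them.

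The Ccr7 ligands were close to absent. The 7 rows of Ccl21 genes held 12 reads and the 2 rows of Ccl19 held 3 reads over all libraries, or 15 reads in 9 rows. Copies of these genes are nearly identical and lie partly on unplaced scaffolds, so that reads mapping to several of them may not have been counted, and their level is uncertain. The same holds for the 4 rows of Ccl27 genes with 60 reads. Of the 24 members under the filter, 8 had 0 reads in every library and 16 had between 1 and 60. Beside those already named, these 16 include Ccl11 with 31 reads, Cxcl17 with 20, Ccl28 with 16, Xcl1 and Ccl26 with 6 each, Ccl20 with 5, and Cxcl15 and Ccl1 with 3 each.

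Levels of different genes can be compared per kilobase of exon. On this scale, over all libraries, the order of the tested ligands began with Cxcl2 at 1691 normalized counts per kilobase, Ccl3 at 1282, Ccl6 at 1179, Ccl4 at 1161 and Cxcl1 at 894. The libraries of neighbouring genes in this order overlapped. Cxcl2 was rank 1 at 4 weeks, rank 2 at 2 weeks and rank 2 in sham. Ccl9 was rank 6 at 4 weeks with 462 per kilobase, rank 7 at 2 weeks with 341 and rank 14 in sham with 61.5. Pf4 was rank 7 at 4 weeks with 388, rank 13 at 2 weeks with 143 and rank 17 in sham with 41.4. Ccl4 was rank 5 at 4 weeks, rank 5 at 2 weeks and rank 1 in sham, with a sham mean of 1211 normalized counts that was 687 without sham replicate 2.

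**Figure D5:**
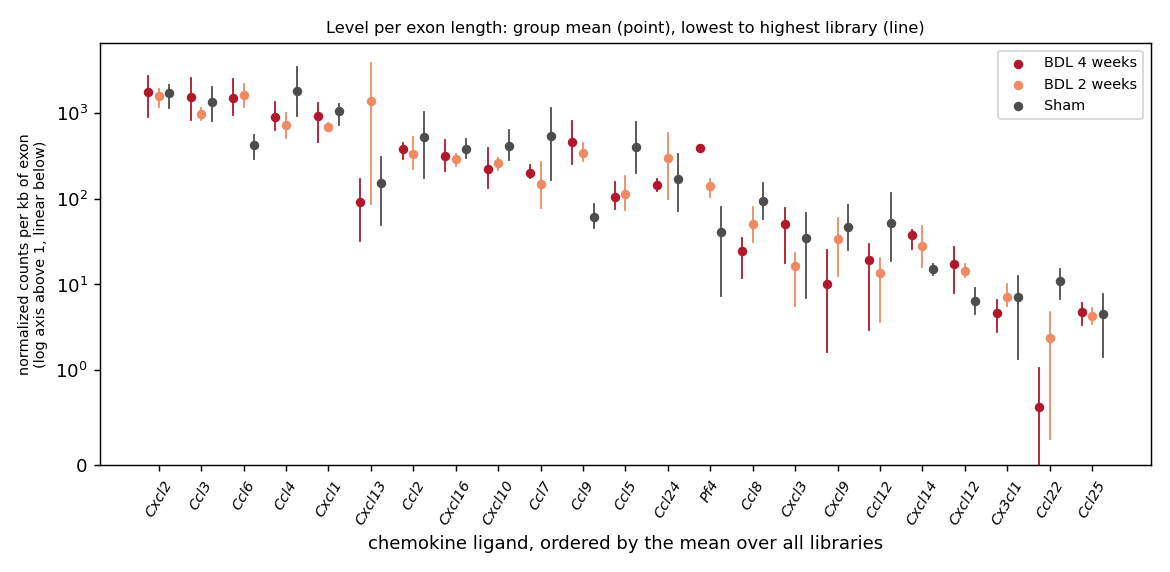
Normalized count per kilobase of exon (axis logarithmic above 1 and linear below) of the tested chemokine ligands at 4 weeks, 2 weeks and sham; points are group means and lines run from the lowest to the highest library. Ccl9 and Pf4 stand at 462 and 388 per kilobase at 4 weeks, against 61.5 and 41.4 in sham.

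At 2 weeks 0 of the 23 ligands passed in limma (0.0169% of all tested genes did), 0 in edgeR, and 3 in DESeq2, which were Ccl9, Ccl6 and Pf4 (1.79% of all genes it gave a p). The unadjusted p was below 0.05 for 4 ligands that were higher and 4 that were lower, against 4.35% and 4.20% of all tested genes. The libraries of 2 weeks and sham did not overlap for 4 ligands that were higher (Ccl9, Ccl6, Pf4 and Cxcl12) and 2 that were lower (Ccl5 and Ccl22), against 10.2% and 7.71% of all tested genes. Limma with library quality weights called 6 (9.42% of all tested genes). The median log2 fold change of the 23 was −0.39 at 2 weeks, and −0.042 without sham replicate 2, against 0.066 over all tested genes. Without 4-week replicate 1 in the fit, Ccl9 passed at 2 weeks (limma, adjusted p = 0.042).

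Between 4 weeks and 2 weeks 0 of the 23 passed in limma (0.00% of all tested genes did), 0 in edgeR, 0 in DESeq2 (0.657% of all genes it gave a p), and 1, Cxcl9, in limma with library quality weights (2.96%). The unadjusted p was below 0.05 for 1 ligand that was higher at 4 weeks, Pf4, and 1 that was lower, Cxcl9, against 0.982% and 3.04% of all tested genes. The libraries did not overlap for 1 ligand that was higher at 4 weeks, again Pf4, and 0 that were lower, against 4.34% and 5.06% of all tested genes. The log2 fold change of Pf4 was 1.46 ± 0.65 SE (limma, unadjusted p = 0.0492, adjusted p = 1), and that of Cxcl9 was −2.31 ± 0.91 SE (unadjusted p = 0.0294, adjusted p = 1). For Ccl9 and Ccl6 the log2 fold changes were 0.28 (95% interval −0.70 to 1.26) and −0.23 (95% interval −1.15 to 0.70).

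Of the genes that read, cleave or induce chemokines, the receptor of Ccl9 and Ccl6 was also higher. Ccr1 averaged 420.3 normalized counts at 4 weeks, 148 at 2 weeks and 22.9 in sham, and rose at 4 weeks (log2 fold change 4.28 ± 0.36 SE, adjusted p = 0.00149, limma). Its 2-week difference did not pass in that fit (adjusted p = 0.0623) but passed in edgeR (adjusted p = 0.0249) and in limma without 4-week replicate 1 (adjusted p = 0.0499), sham replicate 1 (0.0226) or sham replicate 2 (0.00749). Ccr1 was the 1 receptor that passed among 11 tested, against 1.20% of all tested genes. Cxcr4, the receptor of Cxcl12, had a log2 fold change of 1.36 ± 0.44 SE, adjusted p = 0.204, and Ccr7 one of −1.63 ± 0.51 SE, adjusted p = 0.194 (limma, 4 weeks against sham).

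Of 8 proteases that shed or trim chemokines, 2 rose at 4 weeks, both of them matrix metalloproteinases, against 63 of all 11809 tested genes. Mmp8, which neutrophils store, had a log2 fold change of 4.39 ± 0.67 SE, adjusted p = 0.0188, and Mmp2, which fibroblasts secrete, one of 2.48 ± 0.45 SE, adjusted p = 0.0342 (limma). Mmp8 had 37.7, 29.5 and 55.4 normalized counts at 4 weeks, 14.1, 12.4 and 41.3 at 2 weeks and 1.83, 0 and 1.56 in sham. Each sham value was below that of 3 reads, so the size of the difference is uncertain. Its log2 fold change was 2.88 with a pseudocount of 5 and 4.90 with one of 0.5. The call of Mmp8 was lost without 4-week replicate 2 (adjusted p = 0.0703) or 3 (0.107) and with the 2-week libraries left out of the fit (0.0736). That of Mmp2 was lost without 4-week replicates 1, 2 or 3 (adjusted p = 0.0742, 0.0913 and 0.144), 2-week replicate 3 (0.0681) or sham replicates 1, 2 or 3 (0.0627, 0.0537 and 0.0696). The 8 neutrophil markers summed to 175 to 272 normalized counts at 4 weeks, 54.2 to 454 at 2 weeks and 13.2 to 68.3 in sham, and their part in the Mmp8 values was not tested. They include Mmp8 itself and Mmp9, which had 188, 112 and 149 normalized counts at 4 weeks, 65.4, 13.1 and 93.4 at 2 weeks and 13.8, 31.5 and 11.7 in sham and made up most of the sum at 4 weeks. Of the other markers, Ly6g, Camp, Retnlg and Ngp had 7, 18, 26 and 68 reads in all libraries, and S100a8 and S100a9 had 229 and 356. S100a9 had 9.42, 18.8 and 28.3 normalized counts at 4 weeks, 7.66, 6.53 and 185 at 2 weeks and 0, 21.03 and 0 in sham. S100a8 was also highest in 2-week replicate 3, and these 2 genes made up most of the sum there. Both lay above sham replicates 1 and 3 in all ligation libraries and overlapped with sham replicate 2.

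Response genes of the pathways that induce chemokines were counted as well. Of 12 genes of the interferon-gamma response, 4 fell at 4 weeks and 11 had lower fitted values, with a median log2 fold change of −1.47, and −1.13 without sham replicate 2. Over all 11809 tested genes 79 fell and the median was 0.067. Of those that fell, Ciita, the activator of MHC class II genes, had a log2 fold change of −3.01 ± 0.39 SE, adjusted p = 0.0105 (limma). The guanylate-binding proteins Gbp3 and Gbp4 had −2.57 ± 0.40 SE, adjusted p = 0.0189, and −3.35 ± 0.59 SE, adjusted p = 0.0291 (limma). The call of Gbp3 was lost without 4-week replicate 3 (adjusted p = 0.0804), and that of Gbp4 without 4-week replicates 2 or 3 (0.106 and 0.134), 2-week replicate 3 (0.0513) or sham replicate 3 (0.0566). Both were lost with the 2-week libraries left out of the fit (adjusted p = 0.0736 for each). Cxcl9 and Cxcl10, the ligands of this response, had lower fitted values that did not pass in limma, edgeR or DESeq2 and passed in limma with library quality weights. Of 12 NF-kB response genes 0 passed in limma, edgeR or DESeq2 at 4 weeks, and 3 in limma with library quality weights (13.6% of all tested genes). Of the 12 genes 11 had lower fitted values, with a median log2 fold change of −0.37. Nfkb2 had the lowest p of them (log2 fold change −0.86 ± 0.31 SE, adjusted p = 0.257, unadjusted p = 0.0205, limma), and it was the 1 gene of the 12 with an unadjusted p below 0.05. Nfkb1, Nfkbiz and the cytokine gene Il6 had −0.54 ± 0.29 SE, adjusted p = 0.454, −0.68 ± 0.36 SE, adjusted p = 0.453 and −0.47 ± 0.69 SE, adjusted p = 0.799 in the same comparison. At 2 weeks, and between 4 and 2 weeks, 0 genes of these 4 lists passed in limma.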

How the data were processed

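RNA was sequenced from 9 samples of sorted liver lymphatic endothelial cells after depletion of ribosomal RNA, per the labels' protocols. Per the submitters' processing notes, the authors used DESeq2 1.22.1, StringTie 1.3.3b, HISAT2 2.1.0 and Trim Galore 0.5.0, with genome build mm10. The sources used here do not give their order, settings, annotation or strand use.

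The values deposited by the authors are a normalized signal, found to be read counts scaled by 1 factor in each library: 100% of 197424 values were whole reads within 0.001 after division by the smallest value above 0 of the column. A count of 0 allows up to 3 reads, or 15.8 normalized counts in sham replicate 2 and 1.77 to 3.69 in the other libraries, for counting error only. Depth is given as whole reads recovered.

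Groups were compared with limma 3.58.1 (R 4.3.3) on log2(normalized count + 1), with 1 mean per group over all 9 libraries, a variance trend and p-values (two-sided) adjusted by Benjamini-Hochberg over 11809 genes with a mean of at least 10. Alternatives were pseudocounts of 0.5 and 5, no filter and a mean of at least 50, TMM and quantile scaling, only the groups compared, the replicate number as a block, library quality weights, edgeR 4.0.16 (quasi-likelihood) and DESeq2 1.42.0 on the recovered reads, and leaving out each library. The procedure was tested on simulated counts. The motif letters were set after the promoters had been seen. Coordinates and exon lengths are from GENCODE M21 (GRCm38, the assembly of mm10), in which all 47 members were found by gene ID, 44 with the same symbol. Members given library by library are those with an unadjusted p below 0.05 in any comparison and the 10 with the highest mean. From the related lists, genes that passed are named, or those with the lowest p, and some are not reported here; Cxcr4 and Ccr7 were added after their values were seen. The members, gene lists and tests were chosen with earlier results of these data known.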

Additional observations from a re-analysis of the deposited data

How the results depend on the processing

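Of 424 log2 fold changes of named genes recomputed under settings other than leaving out a library, 382 kept their direction and side of the threshold, 31 came to pass, 6 no longer passed and 5 changed sign. Of 351 recomputed without 1 library, 312 were kept, 4 came to pass, 23 no longer passed and 12 changed sign. The number of ligands passing at 4 weeks, 2 in limma, was 4 with quantile scaling, 0 with only the 2 groups compared, 9 with library quality weights, 5 in DESeq2 and 0 to 2 when 1 library was left out. At 2 weeks, in place of 0, it was 2 with quantile scaling, 6 with weights, 3 in DESeq2 and 0 to 1 without 1 library. Between 4 and 2 weeks, in place of 0, it was 1 with weights. For the receptors, proteases and response genes, the number at 4 weeks was 7, against 18 with weights, 12 in DESeq2 and 3 to 8 without 1 library. At 2 weeks, in place of 0, it was 1 with a pseudocount of 5, with no filter, with a mean of at least 50, with quantile scaling and in edgeR, 6 with weights, 5 in DESeq2 and 0 to 1 without 1 library. Between 4 and 2 weeks it was 10 with weights and 4 in DESeq2, in place of 0. The cause of these shifts was not tested.

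Changes of sign concerned small log2 fold changes that did not pass. At 4 weeks Cxcl2 was at 0.078 with quantile scaling, 0.017 in edgeR and 0.016 in DESeq2, and Ccl2 at 0.054 with weights. Ccl9 between 4 and 2 weeks was at −0.024 with weights. Without 1 library the log2 fold change at 4 weeks ran from −0.61 to 0.14 for Cxcl1, from −0.43 to 0.37 for Cxcl2, from −1.27 to 0.046 for Cxcl13, from −0.72 to 0.56 for Ccl2 and from −0.36 to 0.45 for Ccl3. Between 4 and 2 weeks it ran from −0.23 to 0.61 for Ccl9 and from −0.67 to 0.018 for Ccl6. TMM and quantile scaling moved the median of all genes by less than 0.1.

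With the replicate number as a block, 2 ligands passed at 4 weeks, as without it, and Gbp4 lost its call (limma, adjusted p = 0.0694). No pairing by number was seen: deviations of same-numbered libraries from their group means correlated at −0.445 to 0.228, and 2 of 9 libraries correlated best with their own number. With 3 libraries a group, these correlations cannot settle whether samples were paired. Depth limits the members with few reads, such as Ccl22, most of all in sham replicate 2. Tests on 3 libraries a group leave wide intervals, so a p above the threshold does not show that a ligand was unchanged.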
